A study of Mus musculus with 6 samples.

Results

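The mitochondrial oxidation of long-chain fatty acids was followed through 10 genes, taken by their symbols (Cpt1a, Slc25a20, Cpt2, Acadvl, Acadl, Acadm, Hadha, Hadhb, Etfdh and Ppard), and all 10 were found among the 21851 genes of the deposited tables. The tables come from 6 RNA sequencing libraries of bone marrow cells of wild-type (WT) mice, 3 after a control diet (CD) and 3 after a high cholesterol diet (HCD), each kept for 3 months. All 6 are labelled LT-HSC, for long-term haematopoietic stem cells, and the stated gate took lineage-negative cells positive for c-Kit and Sca1 and negative for CD34 and CD135. The labels give no age, sex or strain, and they do not say whether a library came from 1 animal or from pooled animals, so every p-value here speaks of the spread among 6 libraries, part of which may be technical.

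Long-chain fatty acids enter the mitochondrial matrix as carnitine esters and are then shortened in repeated rounds of oxidation, whose electrons pass to the respiratory chain. CPT1A on the outer membrane makes the carnitine ester, the carrier SLC25A20 moves it across the inner membrane, and CPT2 on the inner side returns the acyl group to coenzyme A. In mice, fatty acid oxidation downstream of the nuclear receptor PPAR-delta (Ppard) is known for its part in the maintenance of haematopoietic stem cells.

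Depth was 18820000 to 19980000 reads or fragments per library, estimated from the size of 1 read in low values, and 10549 to 10675 genes reached 1 FPKM (fragments per kilobase of transcript, scaled to library size) in each library. On a principal component analysis HCD replicate 2 lay apart from the other HCD libraries, at -14.66 on the second component against 7.81 and 10.11, so values without it are given where they matter. The transcripts of the sort markers did not all follow the gate. Cd34 stood at 471 ± 15.4 FPKM in CD and 458 ± 17.0 in HCD (SD, n = 3 each), and Flt3, which encodes CD135, at 114 ± 1.19 and 104 ± 4.12, so the libraries are called here those labelled LT-HSC. Of 7 genes listed as sort and stem cell markers 2 passed the test as higher and 0 as lower. Over all 10676 genes tested 6.28% were higher and 7.66% lower, which holds beside each marker count here. Slamf1 went from 1.79 ± 0.471 to 3.41 ± 0.272 FPKM and Vwf from 2.67 ± 0.335 to 4.02 ± 0.291. The summed level of 6 genes of granulocyte and monocyte progenitors (Mpo, Elane, Prtn3, Ctsg, Ms4a3 and Ly6c2) was 878 to 907 FPKM in CD and 1650 to 1820 in HCD, and all 6 passed the test as higher. Of 6 neutrophil genes 5 were tested and all 5 were higher, with sums of 11.4 to 11.7 FPKM in CD and 38.4 to 46.6 in HCD. Lcn2 and Camp among them were below 1 FPKM in all CD libraries, so they entered the test by their HCD values alone. Of 4 tested megakaryocyte and platelet genes 3 were higher and 1 lower (sums 94.5 to 97.5 and 119 to 134 FPKM), and of 5 tested macrophage genes 1 was higher and 3 lower (21.3 to 22.6 and 18.2 to 20.6 FPKM). The 3 lower macrophage genes, C1qa, C1qb and Vcam1, were below 1 FPKM in all HCD libraries. They thus entered the test by their CD values alone. In the T and NK cell list, where Cd3e was at 0 in all 6 libraries, both tested genes were higher (103 to 108 and 127 to 150 FPKM). Nearly all of that sum was Nkg7, at 104 ± 2.76 and 136 ± 11.4 FPKM. Klrb1c stood at 0.630 ± 0.259 and 1.26 ± 0.0391 and also entered the test by its HCD values alone. Cd3g, Cd3d and Cd8a were too low to be tested, so the sum does not measure T cells. Of 6 adipocyte and stroma markers, Plin1 and Cidea were at 0 in all 6 libraries, and the list summed to 0.680 to 0.792 FPKM in CD and 0.969 to 1.10 in HCD. Among 3 tested erythroid genes 0 were higher and 1 lower, and among 3 tested endothelial genes 1 was higher and 1 lower. The 2 tested B cell genes had 0 calls in either direction.

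The promoter windows of the 3 genes of carnitine-dependent import are shown first, because 2 of them, Cpt1a and Slc25a20, were higher under HCD and the third, Cpt2, did not pass the test. Each window runs from 250 bases before to 50 bases after a RefSeq start (GRCm38.p6), read 5′ to 3′ on the strand of the gene. It lies at chr19:3323051-3323350 (plus strand) for Cpt1a, at chr9:108661886-108662185 (plus strand) for Slc25a20 and at chr4:107923540-107923839 (minus strand) for Cpt2. Capitals mark 3 motifs on either strand. They are the GC box, with the letters GGGCGG, the CCAAT box, spelled as its name, and the half-site of nuclear receptors, which reads AGGTCA.
Cpt1a: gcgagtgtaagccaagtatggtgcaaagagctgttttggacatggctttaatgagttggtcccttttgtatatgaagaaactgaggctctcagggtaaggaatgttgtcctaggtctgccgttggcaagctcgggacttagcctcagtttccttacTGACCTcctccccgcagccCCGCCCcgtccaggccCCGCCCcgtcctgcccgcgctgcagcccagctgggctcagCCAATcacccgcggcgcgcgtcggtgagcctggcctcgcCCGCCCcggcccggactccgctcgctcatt
Slc25a20: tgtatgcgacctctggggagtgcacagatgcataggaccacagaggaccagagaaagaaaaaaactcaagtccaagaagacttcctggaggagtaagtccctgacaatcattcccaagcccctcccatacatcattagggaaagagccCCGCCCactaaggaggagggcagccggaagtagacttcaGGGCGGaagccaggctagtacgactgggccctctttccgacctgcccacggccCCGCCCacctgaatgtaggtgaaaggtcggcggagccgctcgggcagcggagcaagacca
Cpt2: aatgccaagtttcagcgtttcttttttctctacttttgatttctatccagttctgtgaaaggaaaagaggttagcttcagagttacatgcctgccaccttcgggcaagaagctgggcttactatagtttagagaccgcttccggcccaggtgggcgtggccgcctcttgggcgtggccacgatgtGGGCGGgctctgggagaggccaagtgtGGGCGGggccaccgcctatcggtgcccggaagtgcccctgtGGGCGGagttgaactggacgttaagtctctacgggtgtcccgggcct

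Each of these 3 windows held 3 GC boxes. Only that of Cpt1a also held a CCAAT box and an AGGTCA half-site, both 1 time. Among all 10 genes, GC boxes stood in the windows of 8, CCAAT boxes in 3 and half-sites in 3 (Cpt1a, Acadvl and Acadm), against 35.7%, 37.4% and 16.3% of 32851 RefSeq windows of the same length. The only GC box of Hadha is also counted for Hadhb, because their windows overlap. Between 50.7% and 70.3% of the bases in the 10 windows were G or C, and the windows compared were not matched for this. The full direct repeat bound by PPARs, a pair of these half-sites with 1 base between them, was in none of the 10 windows and in 0.0396% of all windows, and the site TNAAGGTCA, known for the receptor ESRRA, was in none of the 10 and in 1.28%. For Cpt1a the window covers a single start at 3323301, inside the GENCODE gene (chromosome 19, 3322334 to 3385733), so an earlier start is not covered. The RefSeq starts of Slc25a20 and Cpt2 lie 48 and 21 bases inside theirs. Only exact matches were searched, so sites that differ by a base or lie outside the windows were not counted. With the full repeat so rare among all windows, its absence from these 10 says little. The matches describe letters in these windows and not binding.

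The question put by HCD against CD is whether a cholesterol-rich diet goes with other transcript levels of this pathway. Of the 10 genes, 2 rose, Cpt1a and Slc25a20, and 0 fell, against 6.28% higher and 7.66% lower among the 10676 genes tested by limma on log2(FPKM + 1) at an adjusted p of 0.05. Both risers belong to import into the mitochondrion. All 10 genes passed the filter of 1 FPKM in at least 3 libraries. The median log2 change of the 10 was 0.10, beside -0.03 for all genes tested, and 7 of the 10 had a positive change. Without HCD replicate 2 the median of the 10 was 0.04. In 3 of the 10 (Cpt1a, Slc25a20 and Acadvl) every HCD library lay above every CD library, which was so in 15.0% of all genes tested.

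**Figure D1:**
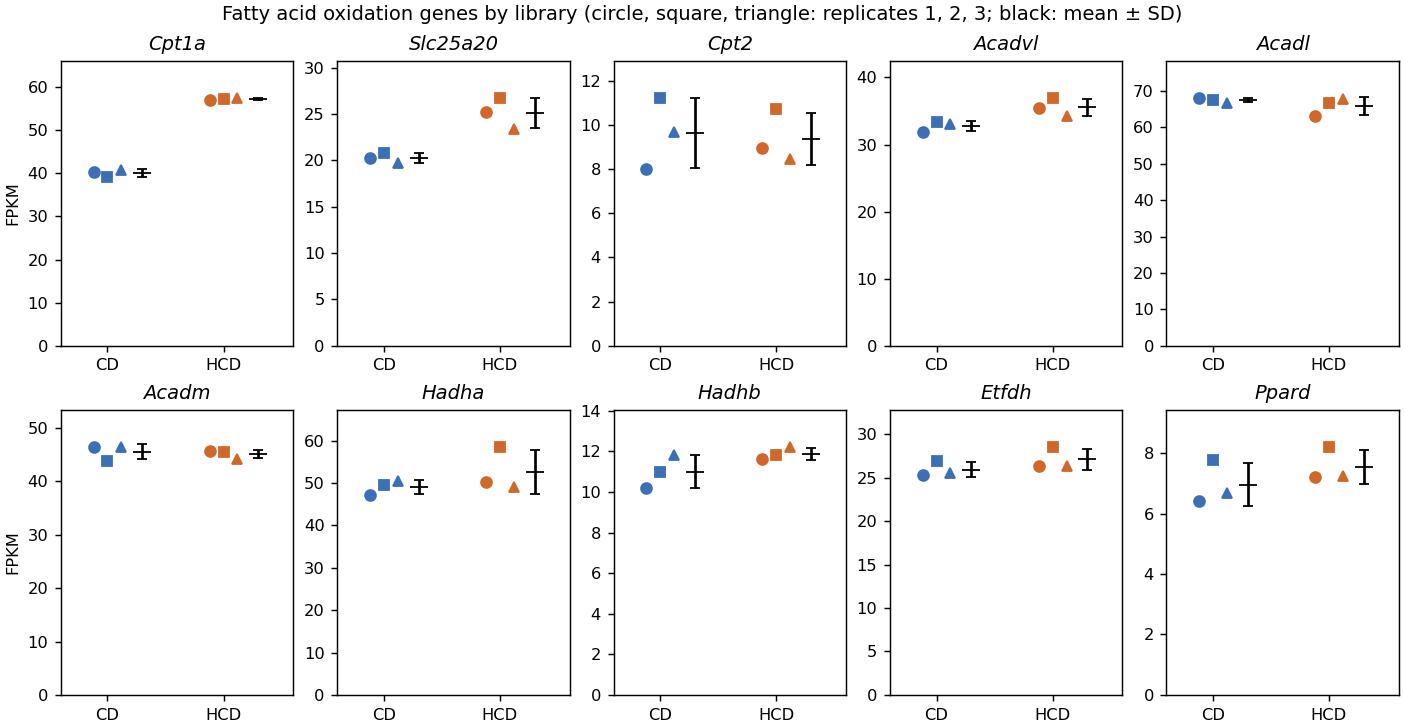
FPKM of each of the 10 genes (y axis from 0) in the 3 CD and 3 HCD libraries, with the mean and SD in black. Cpt1a lies at 39.1 to 40.8 FPKM in CD and 57.0 to 57.4 in HCD, while Acadm, Acadl and Cpt2 overlap between the diets.

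Cpt1a, the gene for the step that controls the rate of long-chain import, stood at 40.3, 39.1 and 40.8 FPKM in CD replicates 1, 2 and 3. In HCD replicates 1, 2 and 3 it stood at 57.0, 57.2 and 57.4 FPKM. Every HCD library lay above every CD library, and the HCD libraries were nearly level. The rise was 1.43-fold, from 40.0 ± 0.877 to 57.2 ± 0.213 FPKM (SD, n = 3 each; log2 change 0.50, 95% interval 0.41 to 0.60, limma adjusted p = 4.15e-04), and its p stood at rank 29 of 10676. At about 3179 to 4919 reads per library over the longest transcript of 4317 bp, counting alone gives a spread of 1.75% in CD and 1.44% in HCD, against 2.19% and 0.373% seen between replicates. The called progenitor, neutrophil, megakaryocyte, macrophage, erythroid and endothelial markers counted above moved with the diet too, as did Slamf1, Vwf, Nkg7 and Klrb1c. Some of these entered the test by the values of 1 diet alone, as stated above. The part of these markers in the rise of Cpt1a was not tested. In bulk libraries a change in the share of a cell type cannot be told apart from a change of RNA per cell.

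The other genes for this first step were near or under the filter of 1 FPKM. Cpt1b, known as the muscle form, averaged 1.21 ± 0.206 FPKM in CD and 1.12 ± 0.444 in HCD and did not pass (limma adjusted p = 0.775). Cpt1c, known from brain, averaged 0.233 and 0.405 FPKM and was not tested. Per length, Cpt1a thus made up nearly all of the CPT1 transcripts measured.

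Slc25a20 (chromosome 9, 108662088 to 108684641) encodes the carnitine-acylcarnitine carrier. It stood at 20.3, 20.8 and 19.7 FPKM in CD replicates 1, 2 and 3 and at 25.2, 26.7 and 23.4 in HCD replicates 1, 2 and 3. The groups did not overlap, and HCD replicate 2 was the highest. The rise was 1.24-fold, from 20.3 ± 0.584 to 25.1 ± 1.63 FPKM (log2 change 0.29, 95% interval 0.16 to 0.43, limma adjusted p = 0.0166). The call was lost without CD replicate 1 (adjusted p = 0.0709), CD replicate 2 (0.0529), CD replicate 3 (0.0764) or HCD replicate 1 (0.0599), and it held without HCD replicate 2 (0.00917) and HCD replicate 3 (0.0177). That of Cpt1a held without any of the 6 libraries, with an adjusted p of at most 0.00596.

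Cpt2 (chromosome 4, 107903981 to 107923610), which completes the import, was low and variable. It stood at 8.02, 11.2 and 9.65 FPKM in CD replicates 1, 2 and 3 and at 8.94, 10.7 and 8.46 in HCD replicates 1, 2 and 3. The groups overlapped fully, with replicate 2 the highest of each. The means were 9.62 ± 1.59 and 9.36 ± 1.17 FPKM (log2 change -0.03, 95% interval -0.31 to 0.25, adjusted p = 0.883), which leaves room for a change between 0.81-fold and 1.19-fold on the scale of FPKM + 1. Its replicates varied by 16.5% in CD and 12.5% in HCD, where counting alone gives 4.81% and 4.79%.

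The plain ratio of Cpt1a to Cpt2 within a library does not depend on how libraries are scaled. It was 5.02, 3.49 and 4.23 in CD replicates 1, 2 and 3 and 6.38, 5.35 and 6.79 in HCD replicates 1, 2 and 3. Every HCD library lay above every CD library. The test used log2((FPKM + 1)/(FPKM + 1)), where the added 1 leaves some dependence on scaling. On that scale the mean went from 1.96 ± 0.24 to 2.50 ± 0.16, a difference of 0.54 (exact two-sided permutation test, p = 0.10, the smallest that 3 libraries against 3 allow). The ratio of Cpt1a to Slc25a20, given without a test, was 1.88 to 2.07 in CD and 2.14 to 2.45 in HCD.

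**Figure D2:**
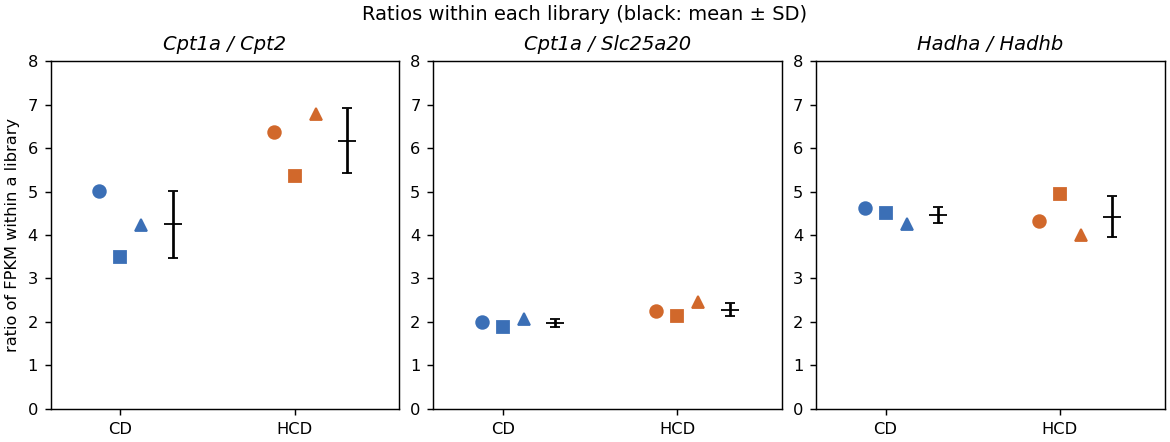
Ratios of FPKM within each library (y axis from 0 to 8) for Cpt1a over Cpt2, Cpt1a over Slc25a20 and Hadha over Hadhb, with the mean and SD in black. The first 2 ratios do not overlap between the diets, and Hadha over Hadhb spans 4.25 to 4.63 in CD and 4.0 to 4.94 in HCD.

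The acyl-CoA dehydrogenases, which start each round of oxidation and differ in the chain length they accept, did not pass the test. Acadvl, for very long chains (chromosome 11, 70010183 to 70015411), stood at 31.9, 33.4 and 33.0 FPKM in CD and at 35.4, 36.9 and 34.3 in HCD replicates 1, 2 and 3. These groups did not overlap, but the difference of 1.09-fold had an unadjusted p of 0.0443 and a limma adjusted p of 0.150 (log2 change 0.11, 95% interval 0.00 to 0.23). Acadl, for long chains (chromosome 1, 66830839 to 66863277), stood at 68.0, 67.6 and 66.8 FPKM in CD and at 63.0, 66.6 and 67.7 in HCD. HCD replicate 1 was the lowest, and the groups overlapped (log2 change -0.04, 95% interval -0.14 to 0.06, adjusted p = 0.612). Acadm, for medium chains (chromosome 3, 153922357 to 153944632), stood at 46.4, 43.9 and 46.4 FPKM in CD and at 45.7, 45.5 and 44.3 in HCD. Its interval was -0.12 to 0.09 on the log2 scale (adjusted p = 0.867), and so did not reach the 0.50 of Cpt1a.

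Hadha and Hadhb encode the alpha and beta chains of the trifunctional protein, which carries out the later steps of each round on long chains. They are transcribed away from each other on chromosome 5, Hadha on the minus strand (30118304 to 30155162) and Hadhb on the plus strand (30155248 to 30184593). Their RefSeq starts lie 273 bases apart, so their promoter windows share 228 bases. This shared stretch at chr5:30155003-30155230 is shown on the plus strand (GRCm38.p6), since it lies upstream of both RefSeq starts and the 2 transcripts were at unequal levels, with its only GC box in capitals. Of its bases 160 lie inside the GENCODE Hadha gene, which begins before the RefSeq start used.
Hadha and Hadhb: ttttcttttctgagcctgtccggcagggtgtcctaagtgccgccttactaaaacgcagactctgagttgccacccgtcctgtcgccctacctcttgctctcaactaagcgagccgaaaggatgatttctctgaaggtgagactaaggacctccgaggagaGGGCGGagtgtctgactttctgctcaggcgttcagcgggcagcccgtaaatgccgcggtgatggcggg

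Hadha stood at 47.1, 49.4 and 50.4 FPKM in CD and at 50.3, 58.4 and 49.0 in HCD replicates 1, 2 and 3. The HCD mean of 52.5 ± 5.12 stood against 49.0 ± 1.69, HCD replicate 2 was the highest library, and the groups overlapped (log2 change 0.10, 95% interval -0.06 to 0.25, limma adjusted p = 0.373). Without HCD replicate 2 the log2 change of Hadha was 0.02. Hadhb stood at 10.2, 11.0 and 11.8 FPKM in CD and at 11.6, 11.8 and 12.2 in HCD, also with overlap (log2 change 0.11, 95% interval -0.05 to 0.27, adjusted p = 0.338). Per length, Hadha was above Hadhb in all 6 libraries, by 4.46 ± 0.191 times in CD and 4.42 ± 0.478 times in HCD. Each gene has 9 transcripts in GENCODE vM21, and how the deposited gene values were drawn from transcripts is not given in the sources used here.

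Etfdh (chromosome 3, 79603788 to 79629500) encodes the oxidoreductase that hands electrons from the acyl-CoA dehydrogenases to ubiquinone. It stood at 25.3, 26.9 and 25.5 FPKM in CD and at 26.4, 28.5 and 26.4 in HCD, and the groups overlapped (log2 change 0.06, 95% interval -0.06 to 0.19, limma adjusted p = 0.459). Ppard (chromosome 17, 28232700 to 28301474), the nuclear receptor of the set, had the lowest level, at 6.41, 7.78 and 6.69 FPKM in CD and 7.20, 8.19 and 7.23 in HCD. These groups overlapped as well (log2 change 0.10, 95% interval -0.10 to 0.31, adjusted p = 0.463). Without HCD replicate 2 the log2 changes of Cpt2, Etfdh and Ppard were -0.12, 0.03 and 0.05. In 5 of the 10 genes (Slc25a20, Cpt2, Acadvl, Etfdh and Ppard) replicate 2 was the highest of both diets.

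**Figure D3:**
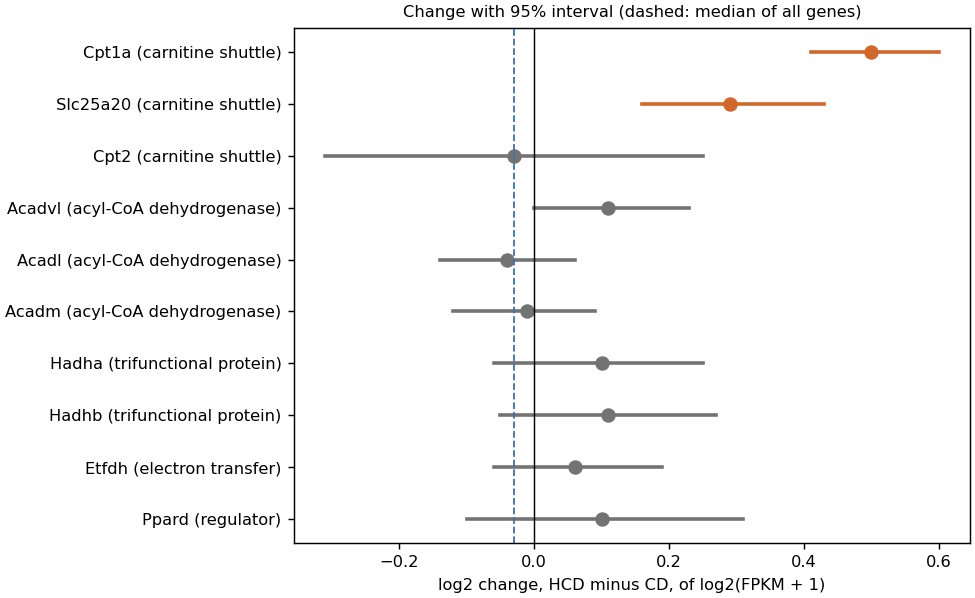
Difference between HCD and CD on the log2(FPKM + 1) scale (x axis) for each of the 10 genes (y axis), with points for the estimate and lines for the 95% interval, in orange for an adjusted p under 0.05. Cpt1a at 0.50 and Slc25a20 at 0.29 stand clear of 0, and the dashed line is the median of all genes tested at -0.03.

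Averaged over the 6 libraries, the order of levels per length ran from Acadl at 66.6 ± 1.84 FPKM (SD, n = 6) to Ppard at 7.25 ± 0.662. Acadl was above every other gene of the set in all libraries. Hadha, Cpt1a and Acadm came next at 50.7, 48.6 and 45.4 FPKM. The range of Cpt1a overlapped with those of Hadha and Acadm, which lay at 47.1 to 58.4 and 43.9 to 46.4 FPKM and did not overlap with each other. Cpt1a was below Acadm in the 3 CD libraries and above it in the 3 HCD libraries. Acadvl, Etfdh and Slc25a20 followed at 34.1, 26.5 and 22.7 FPKM, with overlap of range between the last pair, and Hadhb, Cpt2 and Ppard closed the order at 11.4, 9.49 and 7.25, with overlap between neighbours. The summed level of the 10 genes was 309 ± 4.13 FPKM in CD and 337 ± 11.4 in HCD, and the share of Cpt1a in it was 12.6% to 13.3% in CD and 16.3% to 17.4% in HCD. Without Cpt1a the sums were 269 ± 4.43 and 280 ± 11.4 FPKM, with HCD replicate 2 the highest at 293.

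Around these 10 genes, 108 others of fatty acid handling were listed, of which 107 were in the files and 76 were tested. Of those, 9 rose and 4 fell, against 6.28% higher and 7.66% lower among all 10676 genes tested. The counts of each list below are to be read beside the same shares. Among 20 other enzymes of mitochondrial oxidation 2 rose and 0 fell. Acaa2, a thiolase gene, went from 37.2 ± 3.09 to 48.4 ± 3.82 FPKM (limma adjusted p = 0.0150), and Eci2, an enoyl-CoA isomerase for unsaturated chains, from 32.8 ± 1.55 to 41.8 ± 1.78 (adjusted p = 0.00715). The median log2 change of these 20 was 0.09, beside -0.03 for all genes tested. The 5 tested genes of other carnitine steps had 0 risers and 0 fallers, and the smallest p there was that of the carnitine acetyltransferase gene Crat (adjusted p = 0.472).

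Of the 14 tested genes of peroxisomal oxidation 4 rose and 0 fell, against 6.28% and 7.66% of all genes tested. The median log2 change was 0.14, beside -0.03 for all genes tested. Phyh, which encodes the hydroxylase of phytanic acid breakdown, went from 18.2 ± 1.65 to 22.8 ± 0.647 FPKM (limma adjusted p = 0.0221), and Hacl1, a lyase gene of the same branch, from 6.65 ± 0.596 to 8.84 ± 0.649 (adjusted p = 0.0273). Abcd2, a peroxisomal transporter gene, was near the filter and went from 1.20 ± 0.173 to 1.93 ± 0.214 FPKM (adjusted p = 0.0338).

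Among 20 tested regulators 1 rose and 4 fell, against 6.28% and 7.66% of all genes tested. The median log2 change was -0.11, beside -0.03 for all genes tested. Acaca, whose product makes malonyl-CoA, the known inhibitor of CPT1A, fell from 11.2 ± 0.532 to 7.96 ± 0.619 FPKM (limma adjusted p = 0.00815). Acacb, the other gene of the list for making malonyl-CoA, went the other way, from 0.582 ± 0.0457 to 0.994 ± 0.176 FPKM. The groups did not overlap, but Acacb was under the filter and not tested. Malonyl-CoA was not measured. The coactivator gene Pprc1 fell from 15.2 ± 1.21 to 11.3 ± 1.05 (adjusted p = 0.0186) and the transcription factor gene Foxo3 from 34.5 ± 1.43 to 30.0 ± 0.486 (adjusted p = 0.0339). Sirt3, a mitochondrial deacetylase gene, rose from 46.3 ± 1.93 to 55.5 ± 2.94 FPKM (adjusted p = 0.0192). Across 10354 genes, which are not independent replicates, the log2 change fell with transcript length (Spearman rho -0.252, and -0.147 without HCD replicate 2). Once that trend was removed, Acaca and Foxo3 no longer passed (adjusted p = 0.0632 and 0.272). Ppara was listed at 0 FPKM in all 6 libraries, and Pparg and Ppargc1a were below 1 FPKM in each.

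Of 15 known PPAR target genes outside the set, 5 were tested. Acot1, a cytosolic acyl-CoA thioesterase gene, went from 14.4 ± 1.19 to 20.9 ± 0.959 FPKM (limma adjusted p = 0.00370) and was the only called gene of the list. It has a near-identical neighbour, Acot2, at 7.86 ± 0.322 and 8.73 ± 0.274 FPKM (adjusted p = 0.206), and reads may be split between both, so its value is uncertain. Plin2, which encodes a lipid droplet coat protein, was at 15.6 ± 0.140 and 16.0 ± 0.328 FPKM (adjusted p = 0.703), and Angptl4, which encodes an inhibitor of lipoprotein lipase, at 7.41 ± 0.684 and 6.20 ± 0.778 (adjusted p = 0.162). Plin2 and Angptl4 were named after their values were seen, as were Cpt1b, Cpt1c, Acot2, Acacb, Ppara, Pparg and Ppargc1a.

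Of the lipolysis list 1 of 5 rose, the triglyceride lipase gene Pnpla2, from 34.4 ± 1.29 to 40.9 ± 0.829 FPKM (limma adjusted p = 0.0137). In uptake and acyl-CoA synthesis 0 of 7 rose and 0 fell. There the fatty acid binding protein gene Fabp5 was just outside the threshold, at 42.0 ± 4.73 and 50.7 ± 1.08 FPKM (adjusted p = 0.0501). It was inside the threshold with the replicate number as a block (adjusted p = 0.0212). Of these 13 called pathway genes 4 were still called without CD replicate 1, CD replicate 2, CD replicate 3 or HCD replicate 1 in turn, 13 without HCD replicate 2 and 7 without HCD replicate 3. Eci2, Acaca and Acot1 were called in each of these 6 fits.

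**Figure D4:**
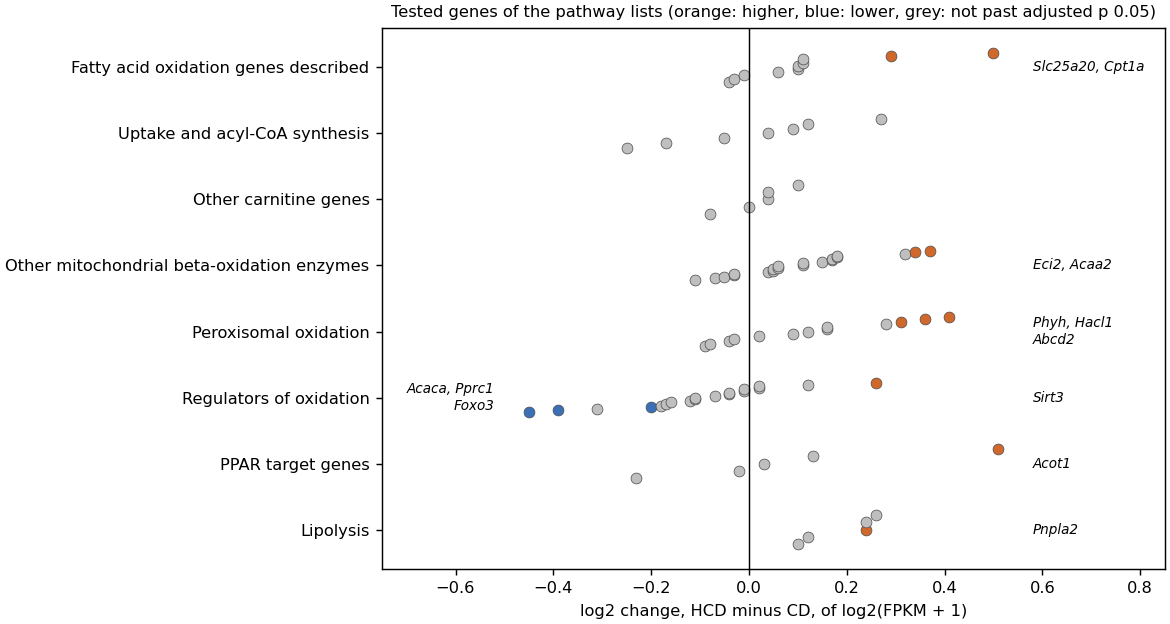
Difference between HCD and CD on the log2(FPKM + 1) scale (x axis) for tested genes of the set described and of 7 lists around it (rows), with the names of genes past the threshold beside each row. The called peroxisomal genes shown lie from 0.31 to 0.41, and the called regulators shown from -0.45 to 0.26.

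The profile of Cpt1a over the 6 libraries, centred on its own mean, was compared with that of every other tested gene, by the root mean square distance on the log2(FPKM + 1) scale. The 3 nearest were Mtus1 (0.0308), Zfp385a (0.0405) and Pcp4l1 (0.0422), apart from gene models. Zfp385a went from 12.8 ± 0.298 to 18.7 ± 0.534 FPKM and Pcp4l1 from 31.4 ± 1.29 to 43.2 ± 1.24. These genes were picked for their likeness to Cpt1a in the same libraries. A rise near that of Cpt1a was thus fixed by the choice, and no p-value is given for it. Mtus1 was below 1 FPKM in all CD libraries, so it entered the test by its HCD values alone, at 0.497 ± 0.0716 and 1.09 ± 0.00705 FPKM. With a pseudocount of 0.1 in place of 1 its log2 change went from 0.48 to 1.01, beside 0.51 for Cpt1a, so its likeness to Cpt1a holds on the log2(FPKM + 1) scale and not on that one. Within the set, Slc25a20 was nearest to Cpt1a at 0.125, at rank 297 of 10400 genes, and Cpt2 farthest at 0.315, at rank 6657.

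**Figure D5:**
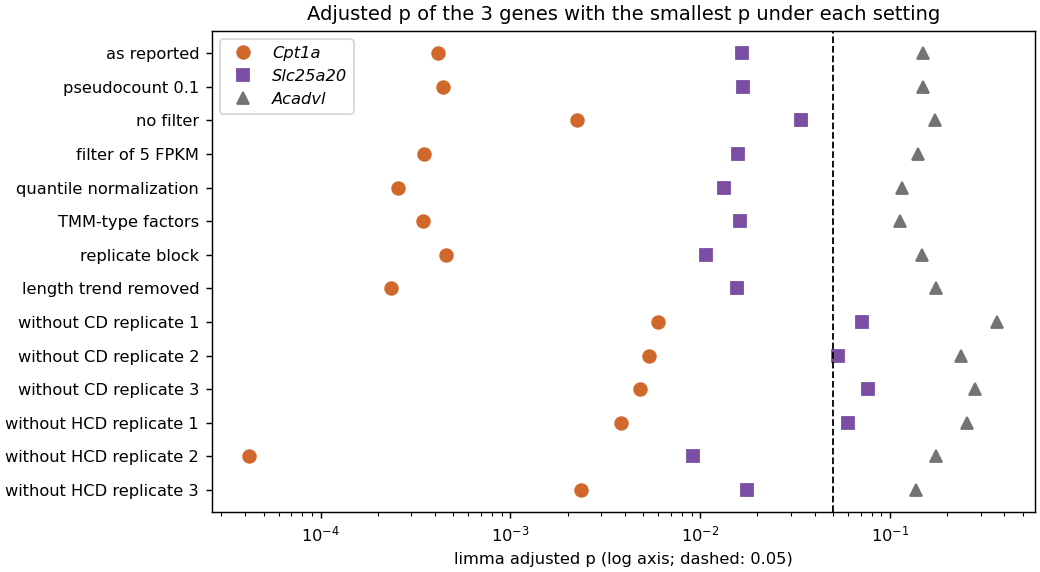
Limma adjusted p (x axis, log scale) of the 3 genes of the set with the smallest p, Cpt1a, Slc25a20 and Acadvl, under each setting of the analysis (rows), with the threshold of 0.05 as a dashed line. Cpt1a stays below 0.00596 or at it in every setting shown, Slc25a20 lies from 0.00917 to 0.0764, and Acadvl lies above 0.05 throughout, from 0.113 to 0.367.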

How the data were processed

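RNA was sequenced from 6 libraries, 3 per diet. Per the labels' protocols, RNA was taken from sorted cells with a micro column kit and made into stranded mRNA libraries. Builds GRCm38 and mm10 and the tools fastp, HISAT2 and StringTie appear in the submitters' processing notes, without versions or settings. What the authors deposited was read as FPKM because of its scale, and the file headers cannot tell this unit from RPKM. Of 21878 rows, 27 with a date in place of a symbol (0.127% of the FPKM) were left out.

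Depth was the median of the depths implied when low values of genes with a single GENCODE vM21 transcript are taken as 1 read. Only implied depths inside a range set in advance were kept, so the estimate could not fall outside that range. Of those low values 43.4% to 52.6% were within 0.05 of a whole number of reads, so no count test was run. Reads per gene assume this depth and the longest transcript, and spreads expected from them cover counting error only.

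The test was limma 3.58.1 (R 4.3.3) on log2(FPKM + 1), two-sided, with trend and robust switched on in its empirical Bayes step. Benjamini-Hochberg adjustment ran over the 10676 genes that reached 1 FPKM in 3 or more libraries. A log2 change on this scale understates that of low genes, while folds are ratios of mean FPKM. Promoter windows are from RefSeq (GRCm38.p6), where all 10 genes matched. Named are the 10 genes, pathway genes past the threshold or else the smallest p of each list, and the 3 genes most like Cpt1a. A few genes meeting it are not reported here, but the counts include them. The members and lists were chosen with earlier results of these data known.

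Same-numbered libraries of the 2 diets deviated together from their group means (correlation across genes 0.103, 0.292 and 0.166), above the bound of 0.1 used for pairing, although the labels do not state a pairing. Different numbers gave -0.25 to 0.0983. The fit with the replicate number as a block is therefore given as an alternative. Other alternatives were quantile normalization, no filter, a pseudocount of 0.1, a filter of 5 FPKM, trimmed-mean factors, removal of the trend against transcript length, and leaving out each library in turn.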

Additional observations from a re-analysis of the deposited data

How the results depend on the processing

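Cpt1a was called in all 13 alternative settings, with a log2 change of 0.49 to 0.55. Slc25a20 was called in 9 of 13, and the calls it lost were lost when 1 library was left out. The count of called members was 2 higher and 0 lower in every setting that kept all libraries, and 1 to 2 higher when a library was left out. The median log2 change of the 10 genes was 0.04 to 0.13 over all settings. With the replicate block the count over all genes went from 1488 to 1873, and it changed no call among the 10 genes or the 13 called pathway genes. With trimmed-mean factors the split over all genes was 785 higher and 585 lower, with the length trend removed 772 and 578, against 670 and 818. Leaving out 1 library moved the count over all genes between 439 (CD replicate 1) and 2707 (HCD replicate 2), with 258 to 1206 higher and 181 to 1501 lower. Each of these fits had 1 library fewer, and what this adds to the moves was not tested. Cpt2 and Acadm, both near 0, changed sign: Cpt2 to 0.00 and Acadm to 0.01 under quantile normalization, and Acadm to 0.02 with trimmed-mean factors. Without 1 library Cpt2 ran from -0.14 to 0.07 and Acadm from -0.04 to 0.00. Neither had an adjusted p under 0.05 in any setting. Foxo3 lost its call with trimmed-mean factors (adjusted p = 0.0699), and Hacl1 without a filter (0.0518). Fabp5 passed with the block, the filter of 5 FPKM, quantile normalization, trimmed-mean factors, the length trend removed and without HCD replicate 2. The difference of the Cpt1a to Cpt2 ratio was 0.55 with a pseudocount of 0.1 and 0.41 to 0.65 without 1 library. The cause of these moves was not tested.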
